A study of Mus musculus with 20 samples.

Results

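The 9 genes described here are 4 fibroblast growth factor (FGF) receptor genes, Fgfr1, Fgfr2, Fgfr3 and Fgfrl1, and 5 feedback genes of the same pathway, Spry1, Spry2, Spry4, Spred1 and Spred2. They were taken by name, and every region of open chromatin that the authors assigned to 1 of them was kept, together with every peak within the gene body and 20 kb on each side. This gave 22 of the 32120 consensus regions of the ATAC-seq table, and windows of 9 among 21521 protein-coding genes. Cells of the Nkx2.1 lineage had been sorted by their GFP signal from dissected neocortices of mouse pups at postnatal day 7 or 8. WT (Nkx2.1-Cre) and Tcf4 cKO (Tcf4 f/f; Nkx2.1-Cre) pups shared the Cre driver and the Ai3 reporter that gives the GFP signal. ATAC-seq, which maps open chromatin, and Cut&Tag for H3K4me1, H3K27ac and H3K27me3 each had 2 libraries per genotype, of 50000 cells each. Tcf4 occupancy came from 2 Cut&Tag libraries of 200000 nuclei with an anti-Flag antibody, from a line with a Flag/HA tag on endogenous Tcf4 that is expressed in the Nkx2.1 lineage. Deletion and tag both depended on Nkx2.1-Cre, each library pooled sorted cells of several types, and no library without the tag was analysed here.

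FGF ligands activate the receptor tyrosine kinases Fgfr1, Fgfr2 and Fgfr3, which signal through adaptor proteins to Ras and ERK, while Fgfrl1 lacks the intracellular kinase domain. The Sprouty (Spry) and Spred proteins are inhibitors of this Ras to ERK signal, and several of them are induced by it, which makes them feedback genes. FGF signalling takes part in the growth and fate of glial precursors, and Fgfr3 is a familiar gene of the astrocyte lineage. H3K4me1 is found at enhancers, H3K27ac at active enhancers and promoters, and H3K27me3 at chromatin under polycomb repression.

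The 18 peak lists held between 15085 and 72790 peaks, and the number of reads behind them is unknown, so peak numbers stand in for depth. The 2 WT ATAC-seq libraries held 54162 and 72308 peaks and the 2 Tcf4 cKO libraries 61652 and 58584. H3K4me1 peaks covered 27.2 and 32.7 Mb in WT against 42.6 and 37.9 Mb in Tcf4 cKO, so lengths of this mark differed between the genotypes over the whole genome. At marker genes, ATAC-seq peaks lay within 1 kb of the start of 4 and 4 of 5 oligodendrocyte precursor genes in the WT libraries and of 4 and 3 in Tcf4 cKO. For 5 astrocyte genes the numbers were 3 and 2 in WT and 3 and 3 in Tcf4 cKO, and for 5 microglia genes 5 and 4 in WT and 3 and 2 in Tcf4 cKO. For 5 interneuron genes they were 4 and 3 in each genotype, for 5 projection neuron genes 1 and 2 in WT and 1 and 1 in Tcf4 cKO, and for 5 endothelial genes 2 in every library. The part of such cells in the results below was not tested, and in bulk samples a change in the number of cells of a type and a change within each cell cannot be told apart. The labels do not say whether replicates came from separate animals, so p-values measure the spread between these libraries, which may be technical. With 2 libraries against 2, an exact two-sided permutation test cannot go below p = 0.33.

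Mean accessibility was higher in Tcf4 cKO at 4 regions near or inside the receptor genes Fgfr3, Fgfrl1 and Fgfr2, and lower at 1 region inside Fgfr2, on the scale of the authors' log2 normalized reads. None of the 5 passed the test over single libraries given below, which does not show that the genotypes were alike there. A difference of over 0.5 log2 units was counted, without a test, since the authors' means carry no value per library. The 4 higher regions were 4 of 22, where 8.38% of all consensus regions were higher, and the 1 lower region was 1 of 22, where 12.6% of all were lower. All 4 higher regions lay away from promoters, among 11 such regions of the 9 genes, and 13.3% of all non-promoter regions were higher by as much. None of the 9 regions of the Spry and Spred genes passed in either direction, against 5 of the 13 regions of the receptors. Annotated promoters were 5 of the 9 and 6 of the 13. Over all promoter regions 1.98% were higher and 3.20% lower, and over all other regions 13.3% and 19.8%. The 2 groups of genes were not tested against each other. The median difference was -0.16 over the 22 regions and -0.10 over all regions.

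The central 151 bases of these 5 regions are shown first, from the plus strand of GRCm38.p6, because they are the sequences at which the genotype means differed. Capitals mark the E-box CANNTG, bound by factors of the basic helix-loop-helix family to which Tcf4 belongs, and the NFI motif TTGGCA, on either strand.
Fgfr3 upstream, chr5:33705444-33705594: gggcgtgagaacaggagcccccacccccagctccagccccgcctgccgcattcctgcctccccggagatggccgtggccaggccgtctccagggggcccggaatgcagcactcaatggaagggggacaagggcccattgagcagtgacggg
Fgfrl1 downstream, chr5:108714160-108714310: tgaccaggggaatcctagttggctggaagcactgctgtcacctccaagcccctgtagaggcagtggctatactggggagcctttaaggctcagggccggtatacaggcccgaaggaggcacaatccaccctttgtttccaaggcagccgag
Fgfr3 upstream, chr5:33704228-33704378: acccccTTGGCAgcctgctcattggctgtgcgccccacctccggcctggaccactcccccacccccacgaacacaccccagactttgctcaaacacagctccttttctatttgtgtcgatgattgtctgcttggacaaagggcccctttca
Fgfr2 intron, chr7:130215693-130215843: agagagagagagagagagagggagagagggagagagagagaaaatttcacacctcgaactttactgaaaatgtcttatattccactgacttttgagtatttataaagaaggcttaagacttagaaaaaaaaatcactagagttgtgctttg
Fgfr2 intron, lower in Tcf4 cKO, chr7:130184022-130184172: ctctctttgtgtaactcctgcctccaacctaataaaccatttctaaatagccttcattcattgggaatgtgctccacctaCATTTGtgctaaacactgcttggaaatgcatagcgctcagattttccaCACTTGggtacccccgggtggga
The 4 higher cores held no E-box and 1 NFI motif, at the Fgfr3 region farther from the gene, and the lower core held 2 E-boxes. Among all consensus regions, CANNTG was in 53.4% of those higher by over 0.5 and in 69.0% of those lower. TTGGCA was in 16.9% and 10.1% of them. None of the 5 cores overlapped a RefSeq exon, and their GC content ranged from 36.4% at the higher Fgfr2 region to 70.2% at the nearer Fgfr3 region.

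Fgfr3 had 3 regions, 2 of them intergenic and upstream of the gene. The region at chr5:33705039-33706000, centred 16205 bp upstream of the RefSeq start, had the largest difference of the 22. Its mean was 6.01 in WT and 7.48 in Tcf4 cKO, a difference of 1.47 log2 units or 2.78-fold. Its neighbour at chr5:33703990-33704617, 17421 bp upstream, had means of 6.07 in WT and 7.07 in Tcf4 cKO, a difference of 0.99. At the Fgfr3 promoter the means were 8.97 and 9.04, a difference of 0.07. These upstream regions held no Tcf4 peak and no H3K27ac peak in any library. H3K4me1 was present at the nearer region in all 4 libraries, with a fold enrichment over background of 2.49 and 3.12 in WT and of 2.73 and 2.72 in Tcf4 cKO.

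Fgfrl1 had a higher region beyond its end and a region inside the gene close to the limit on the lower side. The intergenic region at chr5:108713781-108714690, centred 20006 bp downstream of the start, had means of 6.20 in WT and 7.19 in Tcf4 cKO, a difference of 0.997. It held H3K27ac in all 4 libraries, at a fold enrichment of 3.63 and 3.26 in WT and of 3.84 and 2.94 in Tcf4 cKO. The intronic region 3243 bp downstream of the start had means of 7.79 and 7.35, a difference of -0.44. Its promoter region differed by -0.08.

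Fgfr2 had regions of opposite direction in its introns. The region at chr7:130215252-130216284, 51040 bp downstream of the start, had means of 5.69 in WT and 6.68 in Tcf4 cKO, a difference of 0.99. The region at chr7:130183693-130184501, 82711 bp downstream, had means of 7.56 and 6.63, a difference of -0.93. The authors' table annotates the second region as a promoter, at -915 bp from the closest transcript start it used, while RefSeq places it in an intron. This region alone of the 5 held a Tcf4 peak in both libraries, at a fold enrichment of 5.31 and 3.99, and Tcf4 peaks covered 84.4% of it. H3K4me1 peaks lay at both intronic regions in all 4 libraries. H3K27ac was found at the lower region in WT replicate 1 alone, with a fold enrichment of 4.77. A further region that the authors assigned to Fgfr2, at chr7:133122510-133124737, overlapped exons of Ctbp2 and lay 2856815 bp upstream of the RefSeq start of Fgfr2. It differed by -0.19.

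**Figure D1:**
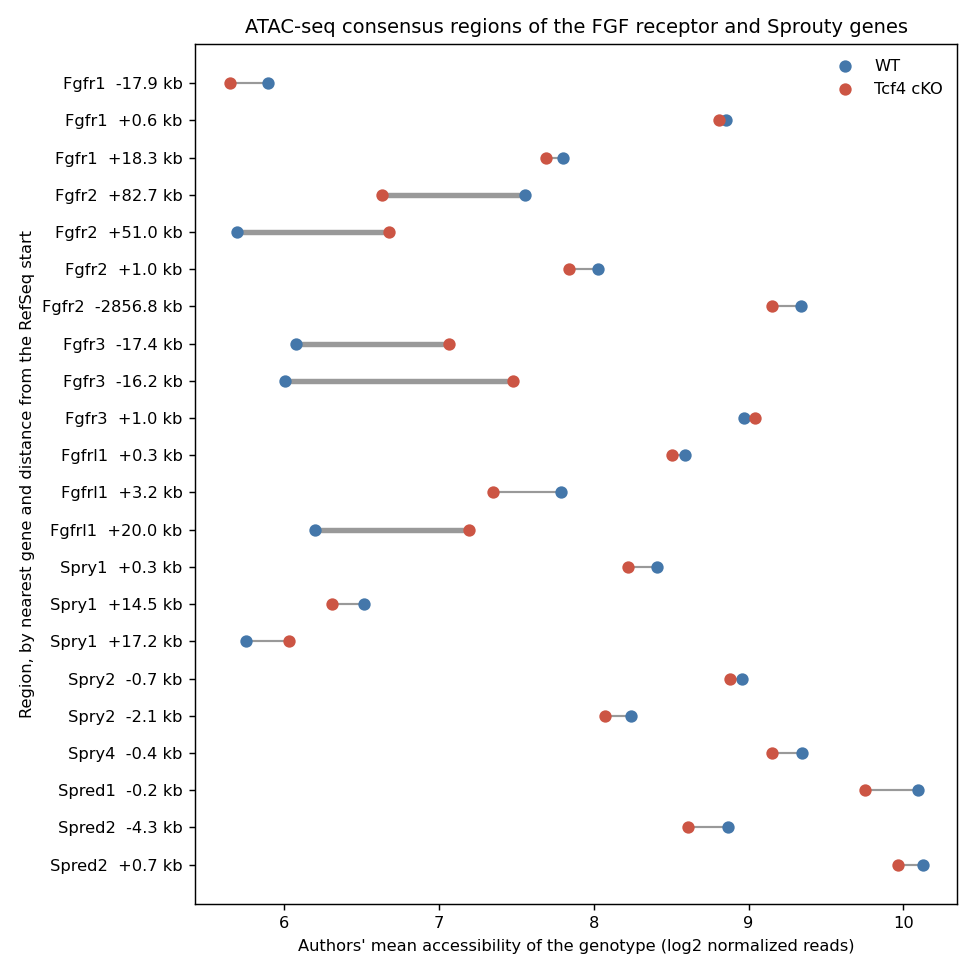
Authors' mean accessibility (log2 normalized reads, x axis) of WT (blue) and Tcf4 cKO (red) at the 22 regions, named by gene and distance from the RefSeq start in kb, with thick lines where the means differed by over 0.5. The 4 receptor regions with higher means in Tcf4 cKO and the 1 lower region in Fgfr2 stand apart from the other 17, which differed by between -0.44 and 0.28.

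By peak fold enrichment, which is not the authors' measure, single libraries were less clear than the means. At the nearer Fgfr3 region the highest peak fold enrichment was 3.04 and 5.04 in WT and 5.42 and 4.72 in Tcf4 cKO, so the genotypes overlapped. The farther Fgfr3 region gave 3.21 and 4.68 in WT and 4.49 and 4.12 in Tcf4 cKO. The Fgfrl1 region gave 7.44 and 8.79 against 8.03 and 8.02, and the higher Fgfr2 region 5.47 and 8.27 against 7.06 and 7.0. In these 4 regions WT replicate 1 had the lowest value and the Tcf4 cKO libraries lay near or inside the WT range. The lower Fgfr2 region did not overlap, with 11.3 and 12.4 in WT against 9.93 and 9.67 in Tcf4 cKO. Peaks covered 285 and 752 bp of the nearer Fgfr3 region in WT and 962 and 903 bp in Tcf4 cKO. Their highest -log10 q there was 2.41 and 9.63 against 15.7 and 10.3, so neither value overlapped. Covered lengths were also apart at the Fgfrl1 region (412 and 643 bp against 738 and 910 bp). They overlapped at the farther Fgfr3 region and the Fgfr2 regions, and the -log10 q overlapped at the other higher regions.

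In limma on log2 fold enrichment per library, no member region passed an adjusted p of 0.05 (0 of 22), where 2.95% of the 30379 tested regions did. At an unadjusted p under 0.05 there were 3 of 22, against 14.2% of all tested regions. The 3 were a region 17243 bp downstream of Spry1 (log2 difference 0.53, SE 0.16, adjusted p = 0.079), the Fgfr3 promoter (-0.45, SE 0.16, adjusted p = 0.16) and the nearer upstream region of Fgfr3 (0.46, SE 0.18, adjusted p = 0.22). The Spry1 region had a fold enrichment of 3.25 and 4.17 in WT and of 5.26 and 4.74 in Tcf4 cKO, without overlap. The Fgfr3 promoter had 6.93 and 6.30 in WT and 4.87 and 4.24 in Tcf4 cKO, also without overlap, although its genotype means of normalized reads differed by 0.07. The lower Fgfr2 region gave -0.19 (SE 0.15, adjusted p = 0.70). Fold enrichment is read at a peak's summit against the local background, and normalized reads over the whole region, so the scales need not move together.

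**Figure D2:**
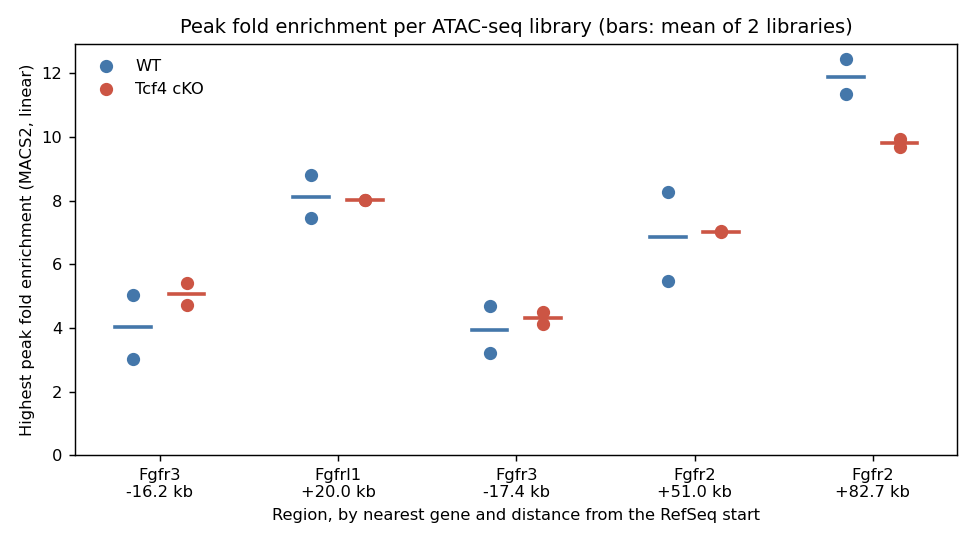
Highest peak fold enrichment (linear, y axis) in each ATAC-seq library at the 5 regions whose genotype means differed by over 0.5, with WT in blue, Tcf4 cKO in red, points for libraries and bars for the mean of 2. The genotypes overlap at the 4 regions with higher means in Tcf4 cKO, and do not at the Fgfr2 region 82711 bp from the start, where WT lies at 11.3 and 12.4.

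All 22 regions held an ATAC-seq peak in all 4 libraries, as 94.6% of all consensus regions did. Peaks restricted to the 2 WT libraries were seen at 0 of 22 member regions (1.02% of all regions), and peaks restricted to the 2 Tcf4 cKO libraries at 0 of 22 (0.56% of all). The start site regions of the 9 genes differed by between -0.34 and 0.07 in the genotype means, with 8 of 9 below 0, as were 73.5% of all promoter regions. The largest of these differences was at Spred1, a Ras to ERK inhibitor, with means of 10.10 in WT and 9.75 in Tcf4 cKO. Per kb of region, the start site regions ranged in WT from 7.32 log2 normalized reads at Fgfr2 to 9.05 at Spred1. In Tcf4 cKO they ranged from 7.13 at Fgfr2 to 8.85 at Spry2. Neighbours in this order cannot be separated, since the authors' means have no spread.

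The Sprouty genes, whose proteins act upstream of Ras and Raf, had 6 regions with differences from -0.20 to 0.28. Spry1 had a promoter region with a difference of -0.19 and downstream regions with differences of -0.20 and 0.28. Spry2 had its promoter and a region 2074 bp upstream, with differences of -0.08 and -0.16, and Spry4 had its promoter alone, with -0.19. The Spred genes had 3 regions, with -0.34 at the Spred1 promoter, -0.26 at 4284 bp upstream of Spred2 and -0.16 at the Spred2 promoter. The 3 regions of Fgfr1 differed by -0.24, -0.04 and -0.11.

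Histone marks at the members were tested in the same way over peaks merged from 4 libraries, and no member region passed. For H3K4me1, 0 of 14 regions in the windows passed in limma, where 0.00383% of 26103 did, and 2 had an unadjusted p under 0.05, where 7.19% of all did. These were a region upstream of Spry2 (log2 difference 0.51, SE 0.19, adjusted p = 0.54) and a region downstream of Fgfrl1 at chr5:108726269-108727527 (0.50, SE 0.19, adjusted p = 0.55). For H3K27ac, 0 of 11 passed in limma against 0% of 13799, and none had an unadjusted p under 0.05, where 909 of all did. For H3K27me3, 0 of 2 passed in limma against 0% of 7802, with none at an unadjusted p under 0.05, where 1246 of all were. The 2 regions tested for H3K27me3 lay at the starts of Fgfr2 and Fgfr3, which carried this mark in all 4 libraries.

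Among the 11 regions annotated as promoters, H3K27ac was called in both libraries of WT at 4 (36.4%, against 77.1% of all promoter regions) and of Tcf4 cKO at 6 (54.5%, against 72.1%). The 11 include the lower Fgfr2 region and the region at exons of Ctbp2. The Ctbp2 region is among the 6 in Tcf4 cKO and not among the 4 in WT. The Fgfr3 start site held both H3K27ac and H3K27me3 in all 4 libraries, within 1 kb of the start. H3K27ac there had a fold enrichment of 3.02 and 3.44 in WT and of 2.80 and 2.40 in Tcf4 cKO. H3K27me3 there had 2.16 and 2.04 in WT and 2.11 and 2.30 in Tcf4 cKO. These H3K27me3 peaks were weak, with a -log10 q of 1.46 and 1.34 in WT and of 1.39 and 1.72 in Tcf4 cKO. In Tcf4 cKO replicate 2 the peaks of the 2 marks did not overlap. The marks were measured in separate libraries of mixed cells, so whether 1 cell carried both was not tested. H3K27ac was likewise present in all 4 libraries at the starts of Spry4, Spred1 and Spred2. It was absent in all 4 at the starts of Fgfrl1 and Spry2, and none of the libraries had H3K4me1 at the starts of Fgfr3, Fgfrl1, Spry1, Spry2 and Spred2. The start site region of Spry4 also overlapped exon sequence of Arhgap26, so its peaks cannot be credited to Spry4 alone.

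**Figure D3:**
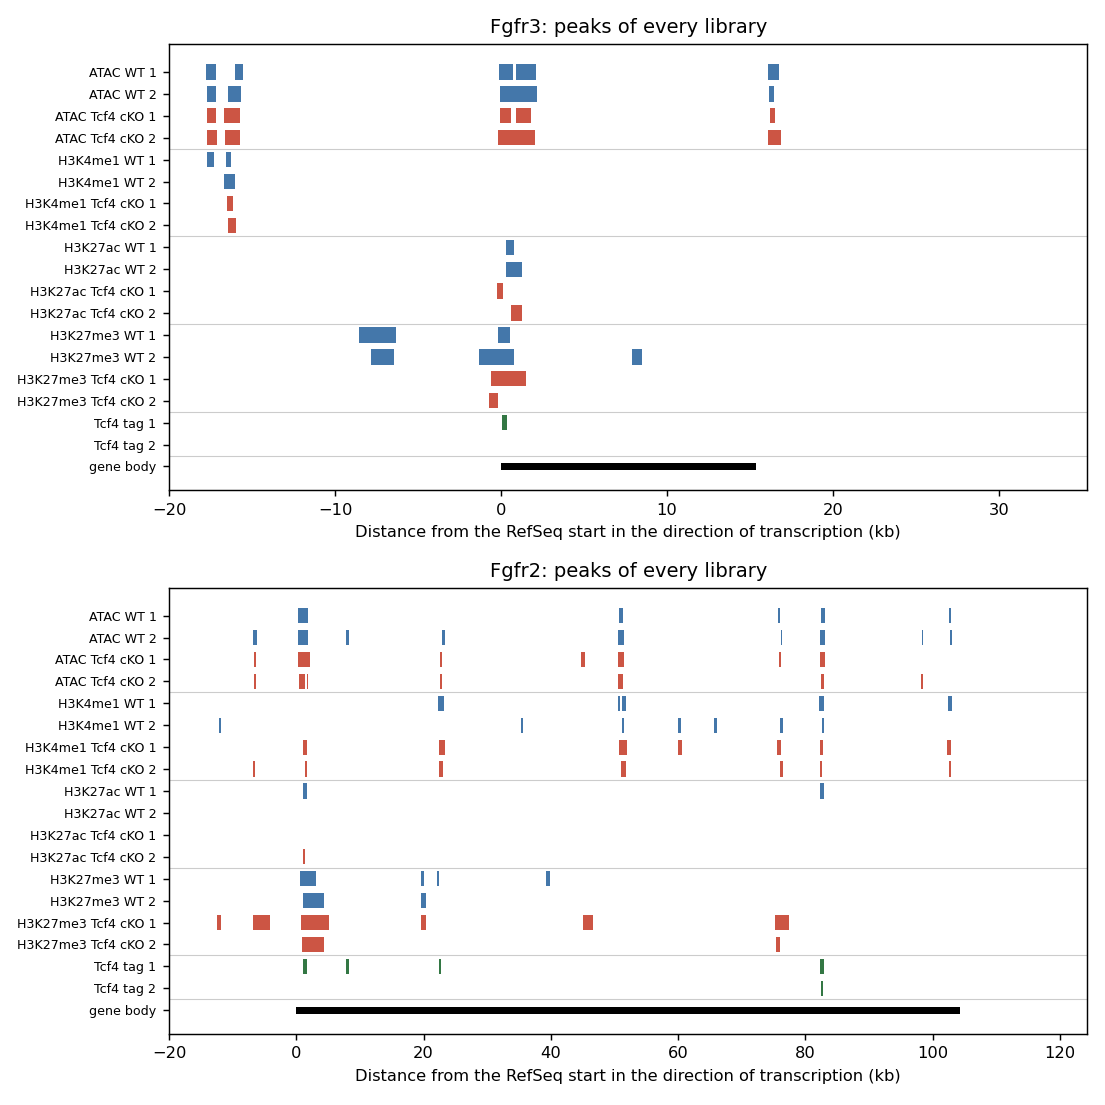
Peaks of every library in the windows of Fgfr3 and Fgfr2 by distance from the RefSeq start (kb, x axis), with WT in blue, Tcf4 cKO in red, Tcf4-tag in green and the gene body in black. A weak H3K27me3 region 7439 bp upstream of Fgfr3 appears in both WT lists and neither Tcf4 cKO list. At Fgfr2 a Tcf4 peak of both libraries lies 82526 bp from the start.

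The length covered by peaks in each window was next compared, with every library's value and no test. For ATAC-seq, 1 of 9 windows was higher in both Tcf4 cKO libraries, where 7.42% of gene windows were, and 3 of 9 were lower in both, where 25.7% were. Spry4 was the higher one, with 1823 and 2346 bp in WT and 2746 and 2549 bp in Tcf4 cKO. Spred1 was lower, with 3674 and 4142 bp in WT and 2892 and 2795 bp in Tcf4 cKO. Spry2 had 1991 and 2720 bp against 1506 and 1563 bp, and Fgfr1 5838 and 5586 bp against 5207 and 4964 bp. The Spry4 call was lost when peaks under a -log10 q of 5 were left out, and the Fgfr1 call was lost in the gene body alone and as a share of each library's covered length. Of mean differences, Spry4 moved from 563.0 to 301.5 bp without WT replicate 1, and Spry2 from -821.0 to -456.5 bp without WT replicate 2.

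For H3K4me1, 3 of 9 windows were higher in both Tcf4 cKO libraries, where 44.8% of all were, and 1 of 9 was lower, where 3.68% were. Fgfr2, Spry1 and Spred1 were higher, and Spred1 had 973 and 887 bp in WT and 2490 and 1758 bp in Tcf4 cKO. Fgfr2 had 2992 and 2921 bp in WT and 5453 and 3228 bp in Tcf4 cKO, and Spry1 448 and 292 bp against 698 and 968 bp. Fgfr3 was the lower one, with 763 and 651 bp in WT and 407 and 467 bp in Tcf4 cKO. As shares of each library's covered length, which differed between the genotypes as given above, 1 of 9 windows was higher (Spred1) and 3 of 9 were lower (Fgfr1, Fgfr3 and Spred2), so the calls for Fgfr2 and Spry1 were lost. The 44.8% and 3.68% of all windows are for lengths in bp. They were not computed for these shares, so the counts of higher and lower windows as shares cannot be set against them. The mean difference changed direction for Spred1, to -64.5 bp in the gene body alone and -211.0 bp without peaks under a -log10 q of 5, and for Fgfr3, to 210.0 bp with 50 kb on each side. The mean difference of Fgfr2, 1384 bp, was 271.5 bp without Tcf4 cKO replicate 1 and 2496.5 bp without Tcf4 cKO replicate 2.

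For H3K27ac, 1 of 9 windows was higher, where 9.47% of all were, and 1 of 9 was lower, where 21.9% were. Spry2 was higher, with 509 and 811 bp in WT and 1024 and 1020 bp in Tcf4 cKO. Spry4 was lower, with 1321 and 1094 bp in WT and 407 and 642 bp in Tcf4 cKO. When weaker peaks, under a -log10 q of 5, were left out, the mean difference of Spry4 was 9.5 bp in the other direction. Neither call held with 50 kb on each side, that of Spry4 was also lost in the gene body alone, and the mean difference of Spry2, 362.0 bp, was 211.0 bp without WT replicate 1.

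For H3K27me3, 1 of 9 windows was higher, where 20.9% of all were, and 1 of 9 was lower, where 15.1% were. Fgfr3 was lower, with 2935 and 4161 bp in WT and 2123 and 544 bp in Tcf4 cKO. Part of this was a region 7439 bp upstream of the start (chr5:33713177-33715393), with a fold enrichment of 2.39 and 2.27 in WT and no peak in Tcf4 cKO. The 2 WT peaks were weak, with a -log10 q of 1.58 and 1.48, where the lists of this mark reach a q-value of 0.0997. Spry4 was higher, with 0 and 393 bp in WT and 2083 and 1728 bp in Tcf4 cKO, and had a region 27384 bp downstream of its start with peaks in both Tcf4 cKO libraries alone. Both calls were lost in the gene body alone, and the mean difference of Fgfr3, -2214.5 bp, was -1425.0 bp without Tcf4 cKO replicate 2. The highest -log10 q of an H3K27me3 peak in the 9 windows was 3.62, so a limit of 5 left no peak to compare. Fgfr2 had its largest covered length in a single library, with 12138 bp in Tcf4 cKO replicate 1 against 3828 and 4172 bp in WT and 4060 bp in Tcf4 cKO replicate 2.

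**Figure D4:**
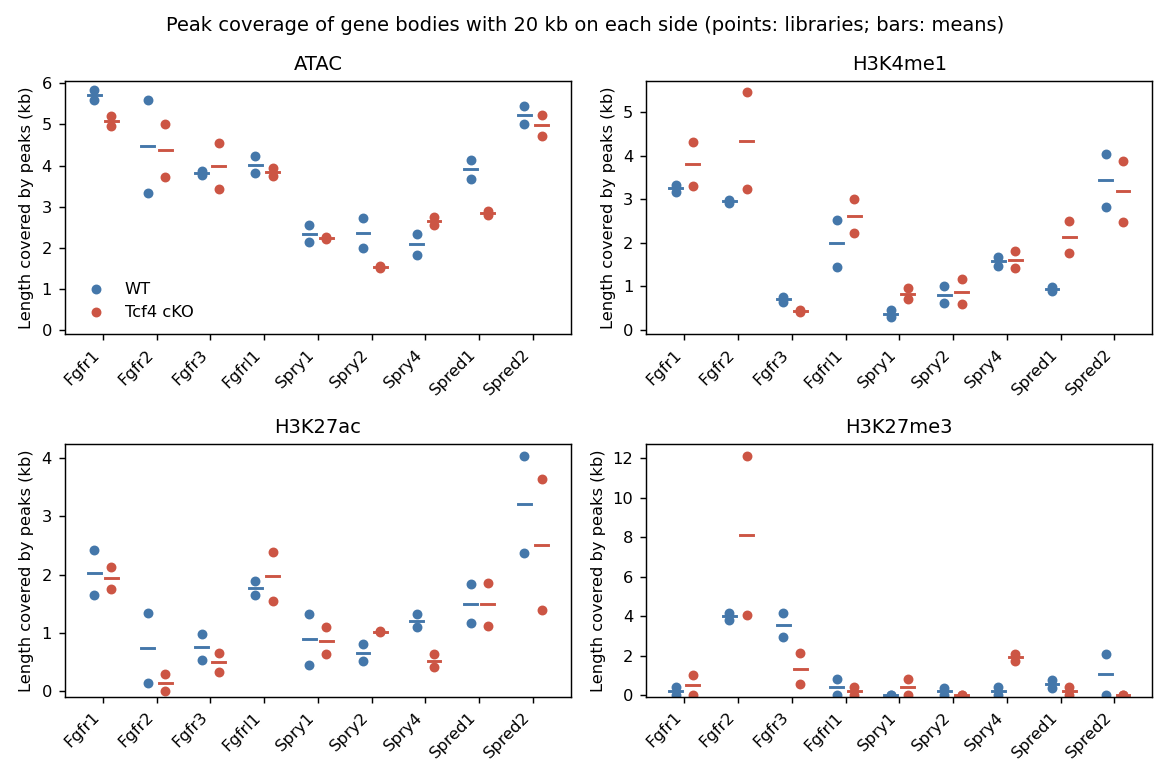
Length covered by peaks (kb, y axis) in the window of each gene for ATAC-seq and the 3 marks, with WT in blue, Tcf4 cKO in red, points for libraries and bars for the mean of 2. Fgfr3 lies lower in Tcf4 cKO for H3K4me1 and H3K27me3, and Spry4 lies lower for H3K27ac and higher for H3K27me3, while most other gene and mark pairs overlap.

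Within these windows, single regions with peaks in both libraries of 1 genotype and neither of the other numbered 4 of 62 merged regions for ATAC-seq, 5 of 56 for H3K4me1, 1 of 35 for H3K27ac and 3 of 25 for H3K27me3. The 5 regions for H3K4me1 were all in Tcf4 cKO. Over all merged regions of this mark, 7.51% were in both Tcf4 cKO libraries alone and 2.64% in both WT libraries alone. Over all merged ATAC-seq regions, 4.83% were in both WT libraries alone and 3.49% in both Tcf4 cKO libraries alone. The 4 for ATAC-seq lay inside Fgfr1, Fgfr2 and Spred2, and the highest of them, 36200 bp downstream of the Fgfr1 start, had 5.04 and 5.56 in WT and no peak in Tcf4 cKO. For H3K27me3 the third was in an Fgfr2 intron, 76322 bp downstream of the start, with 2.95 and 3.15 in Tcf4 cKO and no peak in WT, and over all merged regions of this mark 4.05% were in WT alone and 5.36% in Tcf4 cKO alone. For H3K27ac, 4.23% of all merged regions were in WT alone and 2.53% in Tcf4 cKO alone. At the region 14459 bp downstream of the Spry1 start both marks were called in 1 genotype, H3K27ac in WT alone (3.07 and 4.25) and H3K4me1 in Tcf4 cKO alone (3.54 and 2.99).

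Tcf4 peaks found in both libraries lay in the windows of 8 of the 9 genes, in 12 regions, where 60.0% of all protein-coding gene windows held at least 1. Fgfr3 was the gene without one, and a single peak at its start was found in replicate 1 alone, with a fold enrichment of 2.97. With 50 kb on each side, for which the share of all windows was not computed, all 9 genes held one, Fgfr3 included. Fgfrl1 held 3, Fgfr1 and Spred2 held 2 each, and Fgfr2, Spry1, Spry2, Spry4 and Spred1 held 1 each. Summits lay within 1 kb of the start at Fgfr1, Spry1, Spry2, Spry4 and Spred1, and 1350 bp downstream of it at Spred2. The Spry4 summit lay within the gene body of Arhgap26 and outside that of Spry4. The highest mean fold enrichment was at the Spred1 promoter, with 4.76 and 6.50. The 3 regions in the Fgfrl1 window lay at an exon of Slc26a1, in an intron of Idua and downstream of the gene, and none lay within Fgfrl1 itself. The Idua region had no ATAC-seq peak in any of the 4 libraries. Of the 22 consensus regions, 9 were covered by Tcf4 over at least 30% of their length (40.9%, against 36.3% of all regions). These were 8 of 11 annotated promoters, where 53.4% of all promoters were covered, and 1 of 11 other regions, where 23.3% were. The lower Fgfr2 region is counted with the promoters here, after the authors' annotation. So is the region at exons of Ctbp2 that the authors assigned to Fgfr2, of which Tcf4 covered 76.8%. No region with higher means in Tcf4 cKO was among the 9 covered regions.

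Sequences of 101 bases around the summits are shown for the 4 strongest of 7 summits without an exon in reach, those of Fgfr1 and Spry4 left aside, and for the summit with the most E-boxes. They are from the plus strand of GRCm38.p6, with the E-box CANNTG in capitals.
Spred1 promoter, chr2:117120583-117120683: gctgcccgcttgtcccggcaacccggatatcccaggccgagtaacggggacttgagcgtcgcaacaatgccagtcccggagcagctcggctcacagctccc
Fgfrl1 downstream, chr5:108726647-108726747: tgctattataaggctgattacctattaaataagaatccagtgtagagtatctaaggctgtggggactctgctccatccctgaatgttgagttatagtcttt
Fgfr2 intron, chr7:130184232-130184332: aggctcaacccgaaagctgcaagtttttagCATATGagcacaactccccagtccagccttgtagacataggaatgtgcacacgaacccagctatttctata
Spred2 first kilobases, chr11:19925742-19925842: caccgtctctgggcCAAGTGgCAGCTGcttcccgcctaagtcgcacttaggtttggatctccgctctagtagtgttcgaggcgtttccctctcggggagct
Idua intron upstream of Fgfrl1, chr5:108682269-108682369: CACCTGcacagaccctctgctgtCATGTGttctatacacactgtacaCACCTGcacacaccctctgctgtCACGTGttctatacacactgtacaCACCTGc
The Spred1 and downstream Fgfrl1 summits showed no E-box in these bases, the Fgfr2 summit 1, the Spred2 summit 2 and the Idua summit 5. The Idua bases repeat the same stretch with few changes, E-boxes included, and the fold enrichment there was 3.04 and 3.88.

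**Figure D5:**
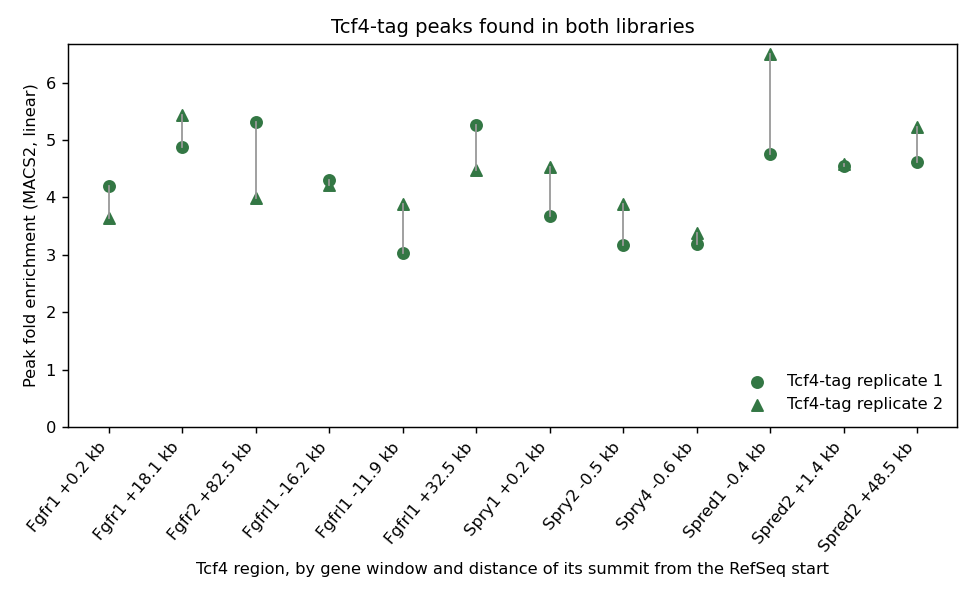
Fold enrichment (linear, y axis) of the Tcf4-tag peaks in replicate 1 (circles) and replicate 2 (triangles) at the 12 regions with a peak in both libraries, named by gene and distance of the summit from the RefSeq start in kb. The Spred1 promoter reaches the highest value, 6.50 in replicate 2, and the Fgfr2 intron lies at 5.31 and 3.99.

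Motifs were searched for on both strands in the 75 bp to each side of a region's midpoint or a Tcf4 summit. CANNTG, which includes CAGCTG, was in 7 of 22 member regions (31.8%, against 49.2% of all regions) and in 8 of 12 Tcf4 summits (66.7%, against 46.1% of all). CAGCTG was in 2 of 22 regions (all, 12.9%) and in 4 of 12 summits (all, 14.4%). TTGGCA was in 1 of 22 regions (all, 9.02%) and in 2 of 12 summits (all, 6.0%). ACAANG, a core of SOX factors, was in 8 of 22 regions (all, 27.7%) and in 4 of 12 summits (all, 20.8%). CCGGAAG, a core of ETS factors, was in 0 of 22 regions (all, 3.39%) and in 0 of 12 summits (all, 3.25%). Within the RefSeq promoters of 7 of the genes, CANNTG was found at 5 (all promoters, 72.1%), CAGCTG at Fgfr3 alone (all, 16.1%), TTGGCA at Spred2 alone (all, 14.4%), ACAANG at Fgfrl1, Spry2 and Spred2 (all, 41.6%) and CCGGAAG at Fgfrl1 alone, where 9.12% of all promoters hold it.

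The wider pathway was read from a list of 41 further genes, of ligands, other receptors, adaptors, feedback genes and targets, of which 33 were the nearest gene of 92 consensus regions. Of these 92, 7 were higher in Tcf4 cKO by over 0.5 in the genotype means (7.61%) and 9 were lower (9.78%), where 8.38% and 12.6% of all consensus regions were. The median difference was -0.08. The largest was at Fgf20, a secreted ligand, where means of 5.80 in WT and 4.52 in Tcf4 cKO differed by -1.27 (chr8:40321047-40321699, in an intron of another gene). This region had a fold enrichment of 7.08 and 9.67 in WT and of 5.96 in Tcf4 cKO replicate 2, with no peak in replicate 1. Fgf20 had regions past the limit in both directions, with a further -0.70 and 0.77. At Frs2, which encodes an adaptor of FGF receptors, a region had means of 6.14 and 5.10, a difference of -1.04. Its fold enrichment was 8.39 and 10.1 in WT and 6.54 in Tcf4 cKO replicate 2, with no peak in replicate 1. Fgfr4, the remaining kinase receptor, had a region with means of 6.40 and 5.66, a difference of -0.74, and Tcf4 covered 78.8% of it. Reproducible Tcf4 peaks covered 0% of the Fgf20 regions at -1.27 and -0.70 and of the Frs2 region at -1.04. They covered 73.1% of a further Frs2 region, at -0.53.

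In the other direction, a region assigned to the ETS factor gene Etv1 had means of 4.09 in WT and 5.28 in Tcf4 cKO, a difference of 1.19. It lay in an intron of another gene, at -270700 bp from Etv1 in the authors' annotation. Etv1 also had a region at 0.55 inside the gene, and a region at -0.55 of which Tcf4 peaks covered 74.6%. Fgf14, which encodes an intracellular FGF that binds sodium channels, had an intronic region with means of 4.70 and 5.71, a difference of 1.01. A region near Plcg1, a phospholipase that receptors activate, had means of 6.01 and 6.88, a difference of 0.87. The 3 regions with higher means had no reproducible Tcf4 peak.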

How the data were processed

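The authors trimmed the reads with Trim Galore, aligned them to mm10 (GRCm38) with Bowtie 2 and used MACS2 for peaks of single libraries, after duplicate removal, with shifted and extended ATAC-seq reads and broad calling for H3K27me3. Merging of reads into peaks in each library means that an absent peak is a value under the caller's limit, not a 0. For each peak the deposited lists hold its position, its fold enrichment, which is a ratio to local background, and its p-value and q-value as -log10. The largest q-value was 0.0495 in ATAC-seq and 0.0997 in the broad H3K27me3 lists. The authors' deposited consensus table, from DiffBind, holds 1 mean per genotype in log2 normalized reads, with fold changes, p-values and FDRs that were not used, nor was the footprint table of merged alignments. Single-cell samples were not analysed here. Read depth per library is unknown.

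The members and lists were chosen with earlier results of these data known. All 9 genes were named, with up to 6 genes of the pathway list, those with the largest differences past 0.5 log2 units. Gene bodies came from RefSeq on GRCm38.p6, a choice made after the files were seen, because GENCODE M21 extends Fgfr2 over 2961 kb. An overlap was at least 1 bp, and gene windows had 20 kb on each side. Log2 of the highest fold enrichment, centred on each library's median, was tested in limma 3.58.1 (R 4.3.3) over all regions with a peak in 4 libraries, with Benjamini-Hochberg adjustment. Reproducible Tcf4 regions merged overlapping peaks of both libraries. Python 3.11.15, pandas 2.3.3 and pysam 0.24.0 were used, and the code was tested on simulated data.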

Additional observations from a re-analysis of the deposited data

How the results depend on the processing

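The limits are the lack of read counts, 2 libraries per genotype, and means without spread. Of 256 values under alternatives, 69 moved by over 1.5 times (counts) or by more than the SD between libraries (covered lengths) and 4 reversed. The other 183 did neither, and for region means and for shares of a library's covered length only the direction was compared. A difference of 1 log2 unit left 1 higher and 0 lower member regions, and regions taken by window gave 2 lower ones. Limma called 0 ATAC-seq regions without centring, 414 with quantile normalization, 554 with absent peaks set to 1 and 170 at a -log10 q of at least 5, and from 0 to 1054 with each replicate left out, with 0 called without WT replicate 1 and 0 without WT replicate 2. With the replicate block it called 1472, where the deviations of same-numbered libraries did not go together (correlation -0.007). The labels do not say whether same-numbered libraries share more than the number, and this correlation cannot settle it. No member region was called under the replicate block in any assay. With absent peaks set to 1, limma called 10747 of 65510 H3K4me1, 2745 of 24901 H3K27ac and 2833 of 16358 H3K27me3 regions. In the member windows it called 5 of 35, 1 of 18 and 3 of 9. Regions absent from both libraries of a genotype have no spread under that setting. H3K4me1 calls were 0 with quantile normalization and 0 at the stricter q, and from 0 to 6 with each replicate left out. H3K27ac gave 3 calls with the replicate block and from 1 to 5 with each replicate left out. H3K27me3 gave 1 with the replicate block, 5 at the stricter q and 0 with each replicate left out. At the stricter q no member region was left to test for H3K27me3.

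Members with covered lengths that did not overlap numbered 4 for ATAC-seq, and 6 to 8 with each replicate left out. For H3K4me1 they numbered 4, with 1 in the gene body alone, 2 at the stricter q and 5 to 8 with each replicate left out. For H3K27ac they numbered 2, with 0 for 50 kb on each side and 5 to 6 with each replicate left out. For H3K27me3 they numbered 2, with 1 in the gene body alone, 4 as shares of each library, 0 at the stricter q, which leaves no peak of this mark in the windows, and 3 to 6 with each replicate left out. A single library has no spread, so these counts are higher with a replicate left out. The shares of all gene windows given above hold for 20 kb on each side, all peaks and all libraries. They were not computed for these alternatives, so the counts here have no background beside them. The 4 reversals were H3K4me1 at Spred1 (-64.5 bp in the gene body and -211.0 bp at the stricter q), H3K4me1 at Fgfr3 (210.0 bp with 50 kb on each side) and H3K27ac at Spry4 (9.5 bp at the stricter q). Tcf4 regions numbered 12 in 8 windows, with 6 in 5 windows at the stricter q, 7 in 5 gene bodies and 19 in 9 windows with 50 kb on each side. They numbered 22 in at least 1 library and 15 to 20 in single libraries, which put them in 8 to 9 windows. GENCODE gene bodies, added after seeing the data, gave 34, and Fgfr2 spans 2961 kb in them against 104 kb in RefSeq. With them the mean H3K4me1 difference of Fgfr2 was 19992.5 bp, against 1384 bp with RefSeq. The cause of these changes was not tested.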
